A study of Mus musculus with 4 samples.

Results

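The copy number profile of mouse chromosome 12 was described from the array's probes that the files place on that chromosome, leaving out positions 113500000 to 118300000, which hold the immunoglobulin heavy chain locus. These were 2014 of the array's 54677 non-control probes, with a further 81 in the left-out positions, and the choice used positions only. Array comparative genomic hybridisation was used, which labels the DNA of a sample and of a reference in different colours and lets both bind to 1 set of probes. There was 1 group of 4 samples, all liver cells of the genotype TAK1LPC-KO_RIP3-_-, which by the series title is a knockout of TAK1 in the parenchymal cells of the liver combined with loss of Rip3. Each sample, 250 ng of DNA from formalin-fixed, paraffin-embedded (FFPE) sections, was labelled with Cy5, and a pool of DNA from 4 normal livers, labelled with Cy3, was the reference on every array. The Cre driver, the age of the animals, the strain and the genotype of the pool are not given in the sources used here. A deletion in parenchymal cells leaves the other cells of the liver with the gene, and all 4 samples carry the Rip3 knockout, so no sample separates the 2 alleles. Neither targeted gene lies on chromosome 12. Genomic DNA carries no marker of cell type, so the tissue label could not be checked.

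A probe's value is its log2 ratio of sample over pool, set to 0 at the median of the autosomal probes of its array. A copy gained in every diploid cell gives a log2 ratio of 0.58 and a lost copy -1.0, and a change in some of the cells gives less. FFPE DNA is fragmented and chemically modified, and it hybridises less evenly than fresh DNA. Mouse chromosome 12 is acrocentric, with its centromere at the start of the coordinates. It carries the lipoprotein gene Apob near its proximal end, then the oncogene Mycn, the cluster of Serpina protease inhibitors that liver secretes into plasma, and the imprinted Dlk1-Dio3 domain. The heavy chain locus near the distal end is rearranged in B cells, so copies are lost there in normal lymphocytes.

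The probes with the highest and the lowest ratios are shown first, because single probes set most of the large values on this chromosome. They were taken from the 1678 members that were well above background in both channels on all 4 arrays, and they are joined by the remaining probe of Apob. Sequences are those of the array design, in the files' own orientation, with positions on build mm9. Capitals mark purines (A and G), since the share of purines went with the ratio, as described further on. The high probes were:

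ENSMUST00000082269, chr12:108727504-108727563: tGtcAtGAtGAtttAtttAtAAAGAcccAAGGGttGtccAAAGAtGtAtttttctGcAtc

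ENSMUST00000082269, chr12:108727715-108727774: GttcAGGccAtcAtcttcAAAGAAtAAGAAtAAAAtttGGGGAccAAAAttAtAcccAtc

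Apob, chr12:8007751-8007810: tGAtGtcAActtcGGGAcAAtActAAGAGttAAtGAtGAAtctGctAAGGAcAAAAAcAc

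Apob, chr12:7992875-7992931: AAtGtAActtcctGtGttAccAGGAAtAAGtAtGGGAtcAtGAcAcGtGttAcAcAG

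Apob, chr12:8019649-8019708: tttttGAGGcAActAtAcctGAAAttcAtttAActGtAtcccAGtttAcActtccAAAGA

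Tmem63c, chr12:88415656-88415715: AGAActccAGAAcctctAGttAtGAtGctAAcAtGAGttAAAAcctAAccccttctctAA

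Mettl21d, chr12:70680913-70680972: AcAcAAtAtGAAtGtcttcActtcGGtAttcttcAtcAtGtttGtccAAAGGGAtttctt

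The low probes were:

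Vash1, chr12:88026312-88026363: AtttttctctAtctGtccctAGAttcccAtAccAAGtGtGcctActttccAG

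1200009I06Rik, chr12:112665425-112665480: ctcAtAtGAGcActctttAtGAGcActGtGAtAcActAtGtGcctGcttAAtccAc

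Amn, chr12:112510959-112511014: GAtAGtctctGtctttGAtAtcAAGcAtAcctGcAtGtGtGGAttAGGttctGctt

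Cys1, chr12:25366281-25366327: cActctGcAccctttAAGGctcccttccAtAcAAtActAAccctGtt

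no gene name, chr12:112508431-112508478: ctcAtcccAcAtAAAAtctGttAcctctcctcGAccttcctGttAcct

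ENSMUST00000021407, chr12:56225206-56225262: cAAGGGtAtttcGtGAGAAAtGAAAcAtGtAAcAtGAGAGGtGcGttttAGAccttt

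The 2 probes of the transcript ENSMUST00000082269 had log2 ratios of 1.67 ± 0.26 and 1.27 ± 0.12 (SD, n = 4). The first gave 1.91, 1.85, 1.35 and 1.57 on replicates 1 to 4 and the second 1.32, 1.39, 1.25 and 1.11. The low probes of Vash1, which encodes a tubulin carboxypeptidase, and of Amn, which anchors the intestinal receptor of vitamin B12, gave -1.21 ± 0.15 and -1.09 ± 0.25. The unnamed low probe lay just before that of Amn and was the steadiest of the low probes shown, at -1.03, -1.05, -1.07 and -1.10. Purines made up 27.1% of its bases, 30.8% of the Vash1 probe and 60% of the highest Apob probe, but 46.7% of the highest probe among those well above background.

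The 4 arrays lay on 2 slides, replicates 1 and 2 on slide 1 and replicates 3 and 4 on slide 2, so slide and sample cannot be told apart. On the 4 arrays the derivative log ratio spread, a measure of noise between neighbouring probes, was 0.38 to 0.42. Across the 2014 probes the arrays correlated with each other at 0.56 to 0.66, with 0.66 and 0.61 for the pairs that shared a slide and at most 0.59 for the others. These correlations run over probes that share the pool and the dyes, and probes are not replicates. Members lay a median of 19.9 kb apart, 83.3% of them were well above background in both channels on all arrays, and 101 were at background in the sample channel on every array.

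The chromosome as a whole lay close to the pool. Its median log2 ratio was -0.0050, -0.0022, -0.051 and -0.040 on replicates 1 to 4, a mean of -0.025 ± 0.025 (SD, n = 4; limma, 95% interval -0.045 to -0.0039, adjusted p = 0.0307 over 19 autosomes). The interval and p rest on a standard error of 0.0090, which limma draws toward the spread of all autosomes, and not on this SD alone. Both arrays of slide 1 were close to 0 and both arrays of slide 2 were lower, and the 2 pairs did not overlap. By the same test 84.2% of autosomes passed the threshold, and 13 autosomes were farther from 0 than chromosome 12. The exact sign-flip test gave p = 0.125, the smallest two-sided p that 4 arrays allow. Without replicate 3 the mean was -0.016 (adjusted p = 0.199), and with slide means as 2 samples the adjusted p was 0.079.

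**Figure D1:**
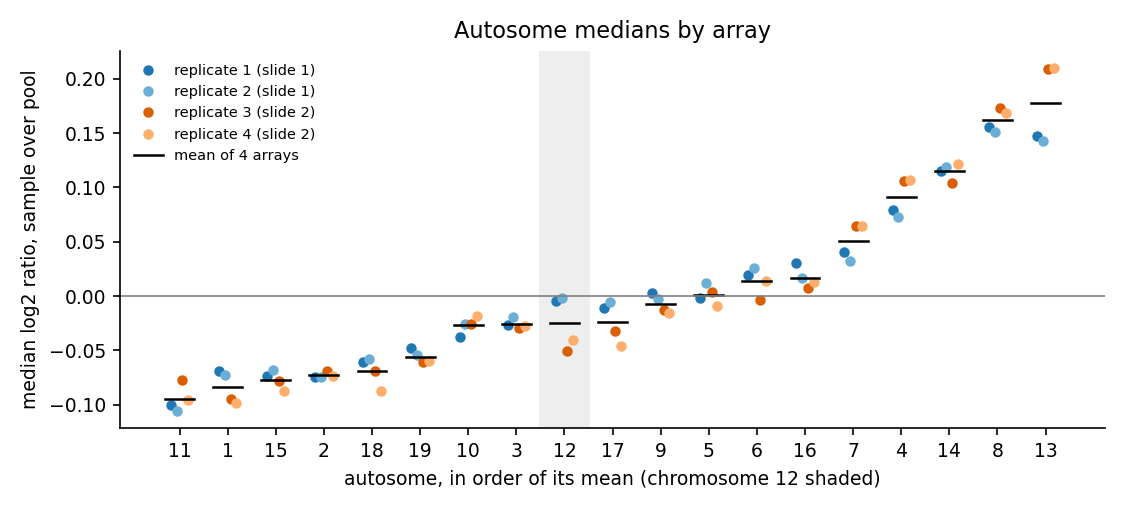
Median log2 ratio of each autosome on each array (points, coloured by replicate) with the mean of 4 arrays (line), in order of the mean, chromosome 12 shaded and without its left-out positions. Chromosome 12 holds rank 9 from the lowest, with slide 1 at 0 and slide 2 at -0.051 and -0.040.

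The difference between slides was -0.042 (slide 1 at -0.0036, slide 2 at -0.046; limma, adjusted p = 5.45e-07), second in size among the 19 autosomes, of which 63.2% passed this test. All autosomes had the same standard error of 0.0063 in this fit, so the p takes its error from all of them and not from chromosome 12. When arrays were centred on the mode of their ratios the difference was -0.016 (adjusted p = 0.836). It was -0.018 with normexp background correction (adjusted p = 0.0405) and -0.026 in the deposited log2 table (adjusted p = 0.0198). It is a difference between 2 pairs of samples as much as between slides.

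The ratio fell slightly from the proximal to the distal side of the midpoint between the first and the last probe. The proximal median minus the distal median was 0.022, 0.049, 0.070 and 0.043, a mean of 0.046 ± 0.020 (SD, n = 4; limma, adjusted p = 1.58e-05), and all 4 arrays had the same sign. Here too limma drew its standard error, 0.0074, toward the spread of all autosomes. The proximal side had a mean of 0.0057 ± 0.019 and the distal side -0.041 ± 0.028. Differences of this kind passed in 78.9% of autosomes, and that of chromosome 12 held rank 9 by size from the smallest. After a correction for regional GC content, added after the data were seen, it was 0.025 (limma, adjusted p = 0.00433). Regional GC here is the mean GC of the array's probes within 500 kb. Its correction was applied after one for the GC of the probe itself.

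No breakpoint was found on chromosome 12 on any array. Each array gave 1 segment of 2014 probes from the first probe to the last, and 0 segments were called at a mean at least 0.25 from 0. That held at penalty multipliers of 5 and 3 in place of 10 and under every other setting tried. A call size of 0.15 could not change the count, as the segment means were -0.051 to -0.020. Noise between neighbouring probes was 0.38 to 0.41 in these fits, so short segments or shifts in a small share of cells can be missed. Neighbouring probes correlated at 0.072 on average over the arrays, against 0.28 and 0.087 on chromosomes 4 and 10, where segments were called. On chromosomes 7 and 15, with 0 called segments, the correlation was 0.12 and 0.11, so it did not separate chromosomes with calls from those without.

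In windows of 5 Mb the profile stayed mostly within 0.1 of the pool, apart from its distal end. Of 23 windows with at least 20 probes, 2 passed the threshold (adjusted p under 0.05 and a mean at least 0.1 from 0), 1 higher and 1 lower. That is 8.70% of the windows, against 38.2% of the 490 autosomal windows, with 24.9% higher and 13.3% lower. Without the size limit 9 of the 23 had a limma adjusted p under 0.05, where 61.4% of all autosomal windows did. The standard deviation of the window means was 0.065, rank 3 from the lowest of the 19 autosomes. Across the 23 windows the arrays correlated at 0.54 to 0.79, with 0.69 and 0.79 for the pairs on a slide. In 12 windows the 4 arrays had 1 sign, 8 below the pool and 4 above, which is 52.2% of windows on chromosome 12 and 67.6% over all autosomes.

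**Figure D2:**
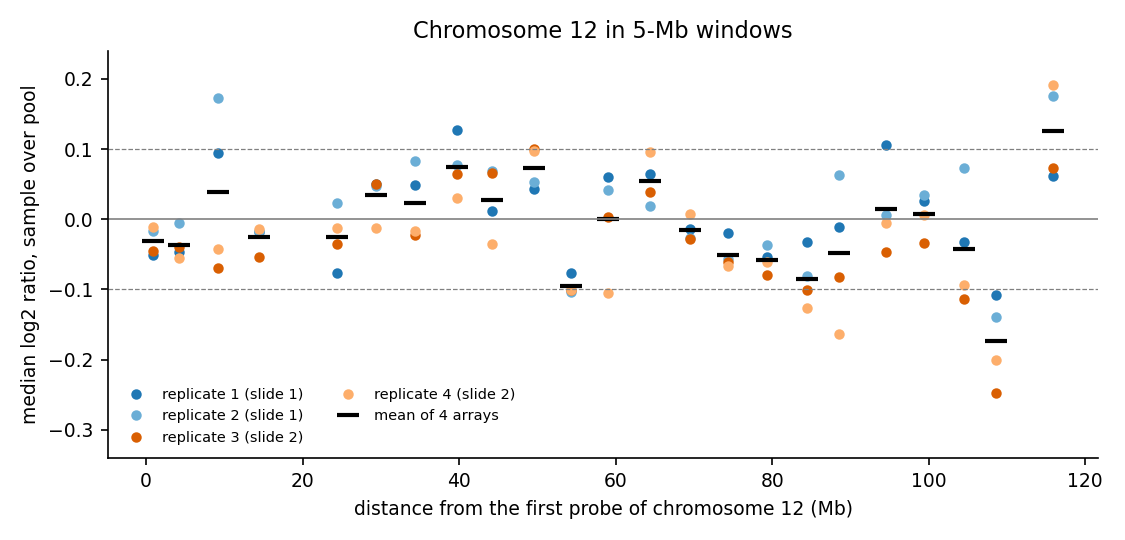
Median log2 ratio in 5-Mb windows of chromosome 12 on each array (points) with the mean of 4 arrays (bars), against the distance of the window's probes from the first probe; dashed lines mark the size limit of 0.1. The last window before the left-out positions has a mean of -0.17 and the window after them 0.13.

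The lowest window ran from 110 Mb to the left-out positions (chr12:110027095-113472789, 109 probes). Its arrays gave -0.11, -0.14, -0.25 and -0.20, a mean of -0.17 ± 0.062 (SD, n = 4; limma, adjusted p = 1.12e-05). All 4 arrays lay below the pool there, with slide 2 lower than slide 1, a difference of -0.10 that had an unadjusted p of 0.0165 and an adjusted p of 0.296 over 490 windows. Of its probes, 77 of 109 or 70.6% had a mean below 0, against 54.2% of all members. It held under all 15 alternatives, with means from -0.23 to -0.14. Its probes had 50.7% purines, against 49.4% over the members. The array's probes within 500 kb of them averaged 37.0% GC, against 36.1% over the members.

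In steps of 1 Mb from 110 Mb to the left-out positions, the mean fell only from 112 Mb on, and unevenly between arrays. From the first to the last of these bins replicate 2 went from -0.021 to -0.40 and replicate 4 from -0.20 to -0.23. Before them the bin from 107 Mb had a mean of -0.16 and that from 109 Mb -0.10, with 0.36 between them on 5 probes. The mean over the arrays was -0.11 from 110 to 111 Mb, -0.11 in the next bin, -0.19 from 112 to 113 Mb and -0.32 in the last bin, which holds 17 probes. On that last bin the arrays gave -0.33, -0.40, -0.30 and -0.23, with slide 1 lower than slide 2, the reverse of the order in the window as a whole. The last probe before the left-out positions, 1 without a gene name beside Kif26a, had -0.47 ± 0.21. Kif26a, a kinesin-like protein, had -0.31 ± 0.26 over 4 probes and did not pass (limma, adjusted p = 0.0553). Without replicate 4, which gave 0.064 against -0.39, -0.52 and -0.39 on the others, it did (mean -0.44; limma, adjusted p = 0.0157). After the regional GC correction the mean of Kif26a was -0.043. On replicate 4 its highest probe had 1.16, and that probe's sample signal was well above background on only 1 array. Its lowest probe, with a mean of -0.94, was at background in the sample channel on all arrays.

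Beyond the left-out positions the sign changed. The window from 115 to 120 Mb, with 30 probes at chr12:118373635-119572087, gave 0.061, 0.18, 0.073 and 0.19, a mean of 0.13 ± 0.067 (limma, adjusted p = 0.000313). All 4 arrays lay above the pool there. With normexp background correction its mean was 0.087 and with centring on the mode 0.096, both under the size limit. Centring on the mode left 0 windows higher and 3 lower, where 36.3% of all autosomal windows were called. The first 1 Mb after the left-out positions had 0.18 ± 0.088 over 20 probes and the last 1 Mb before them -0.34 ± 0.0089 over 44. The left-out positions themselves gave -0.26, -0.10, -0.30 and -0.27. The last 14 probes of the chromosome, from 120 Mb on, were again below the pool, at -0.41, -0.011, -0.18 and -0.077.

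**Figure D3:**
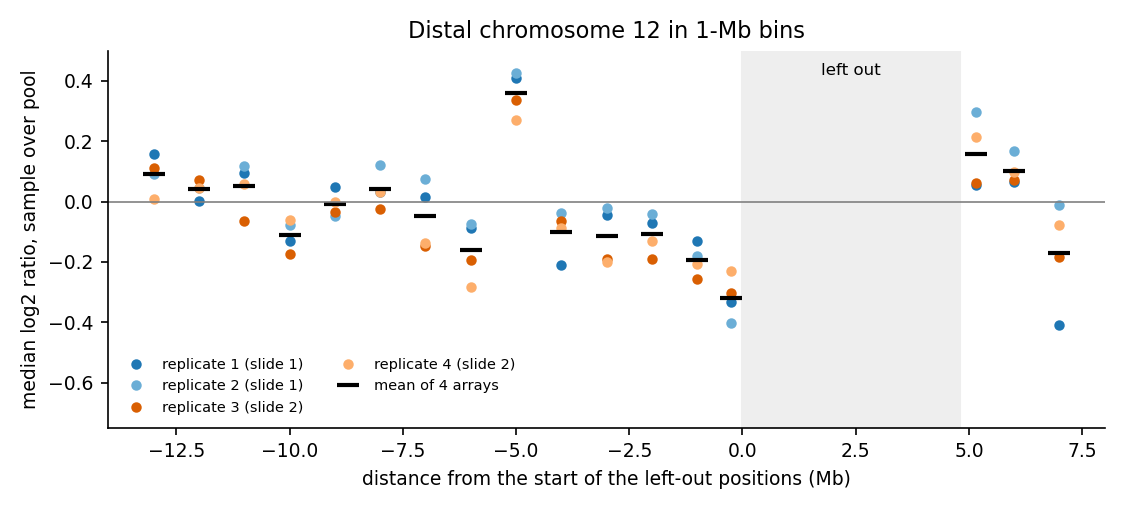
Median log2 ratio in 1-Mb bins from 100 Mb to the end of chromosome 12 on each array (points) with the mean of 4 arrays (bars), against the distance from the start of the left-out positions (shaded). The bins fall to a mean of -0.32 before the shaded part, and the first bin after it has 0.16. The high bin to the left, with a mean of 0.36, holds 5 probes, among them both probes of ENSMUST00000082269.

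Genes of that end were called in both directions. Of 48 genes with probes between 110 Mb and the left-out positions, 18 were past the gene threshold lower and 6 higher, where 19.2% of all autosomal genes were lower and 16.1% higher. Those lower included Amn, the DNA repair gene Xrcc3, Ckb, which encodes brain creatine kinase, and Dync1h1, the heavy chain of cytoplasmic dynein. Ckb had -0.38 and Dync1h1 -0.45 (limma, adjusted p = 0.00931 and 0.00448). The only probe of Xrcc3 had a Cy5 signal at background on all arrays, and no fold is given for it. Wars, a tryptophanyl-tRNA synthetase, was higher at 0.31 (adjusted p = 0.0295). Of the 11 genes from the left-out positions to the last probe, 0 were higher and 2 lower. The window from 115 to 120 Mb, whose median was above 0, held 7 of them. Ptprn2, a receptor-type phosphatase of secretory granules and the first gene there, had 0.15 ± 0.045, with its 2 probes at -0.25 and 0.55. Macc1, at the last probe of the chromosome, had -0.070 ± 0.060 (adjusted p = 0.404), with probes at 0.36 and -0.50, and its mean was 0.017 in the deposited log2 table. At the first probe, the nearest named gene 1700012B15Rik had -0.21 ± 0.16 (adjusted p = 0.0784).

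The other low windows were smaller. The window from 55 to 60 Mb gave -0.076, -0.10, -0.10 and -0.10, a mean of -0.095 ± 0.013 (limma, adjusted p = 0.000456), just short of the size limit. It passed the limit after GC correction, at -0.10, and after the regional GC correction, at -0.12. Windows from 85 and from 80 Mb had -0.086 ± 0.040 and -0.058 ± 0.018. The high windows from 40, from 50 and from 65 Mb had 0.075 ± 0.040, 0.073 ± 0.030 and 0.055 ± 0.033, and after the regional GC correction 0.033, 0.024 and 0.0065. Other settings moved them up: the window from 40 Mb had 0.12 with the correction for base composition, and that from 65 Mb had 0.12 in the deposited log2 table and 0.11 on probes well above background everywhere. The height of these windows thus varied with the processing.

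The window from 10 to 15 Mb was the place where the slides lay farthest apart. Replicates 1 and 2 gave 0.095 and 0.17 and replicates 3 and 4 gave -0.069 and -0.042, so the mean of 0.039 ± 0.11 describes neither pair. Slide 2 minus slide 1 was -0.19 (limma, unadjusted p = 0.00047, adjusted p = 0.0768 over 490 windows). Of all autosomal windows 1 passed this test, 0.204%, and it did not lie on chromosome 12. On chromosome 12, 6 windows had an unadjusted p under 0.05 between slides and 17 of 23 were lower on slide 2.

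Of the 675 genes that the files name on chromosome 12, 197 passed the threshold (limma, adjusted p under 0.05 and a mean at least 0.25 from 0), 82 higher and 115 lower. That is 29.2% of them, against 35.3% of all 20441 autosomal genes, with 12.1% against 16.1% higher and 17.0% against 19.2% lower. Of the 675, 248 rest on 1 probe. Among the 196 genes with at least 3 probes, 30 passed, 15.3% against 24.8%, with 8 or 4.08% higher against 12.6% and 22 or 11.2% lower against 12.2%. The median of the gene means was -0.0063 on chromosome 12 and -0.014 over all autosomal genes. The 4 arrays share the pool and the dyes, and no dyes were swapped, so a call means a steady ratio and not by itself a change in copies.

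Apob, which encodes the structural protein of the lipoproteins made by liver, was the highest of the genes with at least 3 probes. Its arrays gave 1.04, 1.01, 1.22 and 1.18, a mean of 1.11 ± 0.10 (SD, n = 4; limma, adjusted p = 0.000487). Each of its 3 probes, which are shown above, was above the pool on every array, at 0.93 ± 0.074, 0.95 ± 0.30 and 1.45 ± 0.052. The probe at chr12:7992875-7992931 was the uneven one, with 0.63 and 0.81 on slide 1 and 1.32 and 1.07 on slide 2. The window around Apob, from 5 to 10 Mb, had a median of -0.036 ± 0.022, so the high ratio was not shared by its surroundings. It lay between 0.82 and 1.23 under the 15 alternatives.

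The rule gave 8 high genes in all, and the means of the others were at most 0.53. Tmed10, a cargo receptor of the early secretory pathway, had 0.49, 0.35, 0.51 and 0.45, with all 3 probes above the pool at 0.33 to 0.69. Smoc1, a secreted calcium-binding matrix protein, had 0.53 ± 0.31, but its probes ranged from -0.56 to 1.67, and the Cy5 signal of those 2 extremes was at background on all arrays. Its size is not established. Agmo, which cleaves ether lipids, had 0.31 ± 0.11 and the transcript ENSMUST00000085463 had 0.33 ± 0.059. Ttll5, a tubulin polyglutamylase, and Prpf39, a splicing factor, had 0.27 ± 0.099 and 0.26 ± 0.088, and they lost their calls under 9 and 11 of 15 alternatives. Agmo and Smoc1 lost theirs under 5 each, Agmo without replicate 2 or 4 (0.30 and 0.27) and Smoc1 without replicate 1, 2 or 4 (0.49, 0.51 and 0.44). With normexp background correction the means of Tmed10, Agmo, ENSMUST00000085463, Ttll5 and Prpf39 were 0.25, 0.20, 0.19, 0.13 and 0.10.

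The low genes were led by Amn, with -0.66, -0.62, -0.56 and -0.50, a mean of -0.59 ± 0.069 (limma, adjusted p = 0.00175). Its probes had -1.09, -0.43 and -0.24, so that the lowest set much of the mean. Nkx2-1, a transcription factor of lung and thyroid, was the steadiest, at -0.55, -0.51, -0.51 and -0.54 (mean -0.53 ± 0.022), with probes from -0.68 to -0.23 and 36.7% purines on average. Its single probes were less steady, and the lowest ranged from -0.89 to -0.53 over the arrays. After the correction for base composition the mean of Nkx2-1 was -0.28. The transcript ENSMUST00000021407 had -0.53 ± 0.054 and Spnb1 (now Sptb), the spectrin of red cells, -0.38 ± 0.079 over 7 probes. Bdkrb2, a bradykinin receptor, had -0.40 ± 0.16 and Itpk1, an inositol phosphate kinase, -0.33 ± 0.086. Allc, an allantoicase, Ttc9 and Actn1, which encodes an alpha-actinin, had -0.40 ± 0.20, -0.41 ± 0.24 and -0.34 ± 0.19. These 3 lost their calls under 4, 2 and 3 of 15 alternatives. Leaving out a replicate did so for Allc (without replicate 1 or 2, -0.36 and -0.33), Ttc9 (without replicate 2, -0.42) and Actn1 (without replicate 2 or 3, -0.33 and -0.26). Allc and Ttc9 each have 1 probe that was at background in the sample channel.

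**Figure D4:**
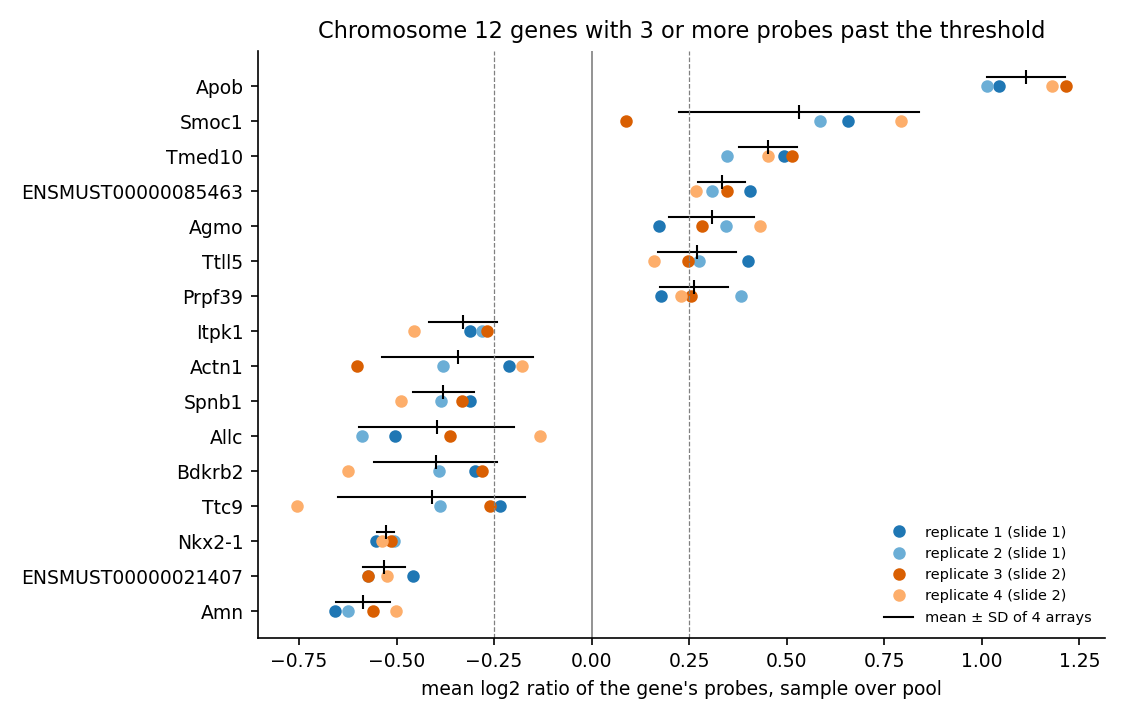
Mean log2 ratio over the probes of high and low genes of chromosome 12 with at least 3 probes that passed the threshold with 1 sign on all arrays, 1 gene per 1 Mb; points are arrays, black bars the mean ± SD of 4 arrays and dashed lines the size limit of 0.25. Apob stands apart at 1.01 to 1.22, and Nkx2-1 has the narrowest spread.

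Of a list of 40 liver and plasma protein genes 28 had probes on chromosome 12, with 8 called higher, 4 called lower and 16 uncalled. That is 42.9%, against 35.3% of all autosomal genes, with a median of 0.095 against -0.014, and 15 of the 28 rest on 1 probe. The list shares Dio3, which was lower, with that of the imprinted domain. Besides Apob, the members farthest from 0 were Serpina3f, a protease inhibitor, at 0.63 ± 0.19, Foxa1, a pioneer transcription factor of liver, at 0.59 ± 0.037, and Acot1, an acyl-CoA thioesterase, at 0.57 ± 0.29 (limma, adjusted p = 0.00331, 0.00157 and 0.0107), each on 1 probe. With normexp background correction their means were 0.42, 0.35 and 0.30. Acot2, beside Acot1, was also higher at 0.33, Acot4 at 0.32 did not pass (adjusted p = 0.0549), and Acot5, the next gene, was lower at -0.27. The Serpina genes likewise had no common ratio. Serpina11 was lower at -0.41, Serpina9, Serpina5 and Serpina1f were higher at 0.31, 0.39 and 0.37, and the 2 probes of Serpina6, which encodes the cortisol carrier of plasma, had -0.68 and 0.40.

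Of 26 measured cancer genes 1 was higher and 3 were lower. That is 15.4% of them, against 35.3% of all autosomal genes, with a median of -0.055 against -0.014. The comparison is unlike in probe number, since only 7 of the 26 rest on 1 probe. On chromosome 12, 29.2% of genes passed, and 15.3% of those with at least 3 probes. Mycn, an oncogene amplified in neuroblastoma, had 0.41, 0.65, 0.70 and 0.60 on its only probe (mean 0.59 ± 0.13; limma, adjusted p = 0.00245), and 0.38 with normexp background correction. The 4 probes of Ddx1, the nearest gene with a symbol on its distal side, had a mean of -0.11 ± 0.12 (adjusted p = 0.269) and the 13 probes of Nbas, the gene after it, 0.085 ± 0.088 (adjusted p = 0.338). The unnamed transcripts between Mycn and Ddx1 had -0.14 (AK017761) and -0.11 (AK046074), so the Mycn ratio was not shared on that side. Etv1, an ETS transcription factor, had -0.40 ± 0.097, and Rock2, a protein kinase of the cytoskeleton, -0.31 ± 0.16, which did not pass without replicate 1, 2 or 4 (means -0.30, -0.30 and -0.24). Hif1a, Max, Fos, Dnmt3a and Dicer1 did not pass. The 2 probes of Hif1a were at background in the sample channel on all arrays, so its ratio is not established. Fos had -0.64 and -0.66 on slide 1 and -0.069 and 0.088 on slide 2.

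Of 13 measured genes of TNF, NF-kB and kinase signalling, the pathways in which TAK1 acts, 1 was higher and 0 were lower. By limma 4 had an unadjusted p under 0.05. The called share was 7.69%, against 35.3% of all autosomal genes, and the median was 0.073. That is an unlike comparison, since only 2 of the 13 rest on 1 probe. On chromosome 12, 29.2% of genes passed, and 15.3% of those with at least 3 probes. Rps6ka5, a kinase that phosphorylates histone H3, had 0.37, 0.37, 0.32 and -0.0082 (mean 0.26 ± 0.18, adjusted p = 0.0488). Replicate 4 stood apart from the others, and the call was lost under 10 of 15 alternatives. Nfkbia, the inhibitor of NF-kB, had 0.15 ± 0.30 and Traf3, an adaptor of TNF receptors, -0.100 ± 0.19, and neither passed (adjusted p = 0.346 and 0.39).

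In the imprinted Dlk1-Dio3 domain, inside the low distal window, 4 of 7 measured genes were lower and 1 was higher, with a median of -0.37. The called share was 71.4%, against 35.3% of all autosomal genes, but it is of few genes, and 5 of them rest on 1 probe. Rtl1, a retrotransposon-derived gene of the placenta, had -0.92, -0.47, -1.09 and -0.82 (mean -0.82 ± 0.26; limma, adjusted p = 0.0027), and -0.53 with normexp background correction. Mirg, a noncoding RNA that hosts microRNAs, had -0.50 ± 0.039, Dlk1, a Notch ligand homologue, -0.38 ± 0.14 and Dio3, which inactivates thyroid hormone, -0.37 ± 0.21. Dio3 lost its call under 4 of 15 alternatives, among them leaving out replicate 2, 3 or 4 (means -0.26, -0.39 and -0.39), and Dlk1 under 1. Rian, another noncoding RNA between Rtl1 and Mirg, was higher at 0.35 ± 0.17 (adjusted p = 0.0175) on a probe that was not well above background on every array, and Meg3, with 3 probes, had 0.045 ± 0.13 (adjusted p = 0.659). Genes of the domain thus differed in sign within a stretch of less than 1 Mb.

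Of 24 very long genes measured, 0 passed the threshold (limma; 3 had an unadjusted p under 0.05), against 35.3% of all autosomal genes, with a median of 0.079. That is an unlike comparison, since 0 of the 24 rest on 1 probe. Of genes with at least 3 probes, 24.8% passed over all autosomes and 15.3% on chromosome 12. Npas3, a neuronal transcription factor, at 0.24 (adjusted p = 0.0234) and Eml5, a microtubule-associated protein, at 0.23 (adjusted p = 0.0309) were just under the size limit. Kcnh5, Fut8 and Ptprn2 have only 2 probes each. The 13 genes with at least 10 probes ran from -0.28 to 0.20. Ncoa1, a nuclear receptor coactivator, was highest with 0.15, 0.20, 0.21 and 0.23 over 12 probes, under the size limit, followed by Immp2l and Rad51l1 (now Rad51b) at 0.12 each. The lowest were BC156654, Akap6 and Nrxn3, at -0.28, -0.090 and -0.054. BC156654, which is not on the list of very long genes, passed (limma, adjusted p = 0.0148), but its 16 probes ranged from -1.44 to 0.30 and the lowest was at background in the sample channel. Its mean was -0.22 on probes well above background everywhere, under the size limit, and it did not pass without replicate 3 or 4 (-0.27 and -0.25). Even within these genes single probes spread widely, from -0.61 to 0.67 in Immp2l and from -0.91 to 1.28 in Foxn3.

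Part of the spread of single probes was shared by the arrays, and it went with the bases of the probe. Tested singly, 298 of the 2014 probes passed as higher and 385 as lower (limma, adjusted p under 0.05 and a mean at least 0.25 from 0), 33.9% against 36.9% of all autosomal probes. In 50.9% of members the 4 arrays had 1 sign, against 53.3% on the other autosomes. Probes with at most 40% purines had a median log2 ratio of -0.16 ± 0.014 over the arrays (341 probes), those over 50 and up to 55% 0.033 ± 0.045 (386 probes), and those over 60% 0.20 ± 0.049 (216 probes). The medians of the first group were -0.16, -0.14, -0.17 and -0.17 and those of the last 0.21, 0.26, 0.18 and 0.15. Single probes of these groups overlapped. A Spnb1 probe with 68.3% purines had a mean of -0.57, and a Nrxn3 probe with 36.7% had 0.33. Spearman's rank correlation of purine share with the mean ratio was 0.33 over the members and 0.31 on the other autosomes, and GC content had -0.11 and -0.14. These are descriptions across probes, chosen after the data were seen, and the share of purines turns into its complement if a probe is written on the other strand.

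**Figure D5:**
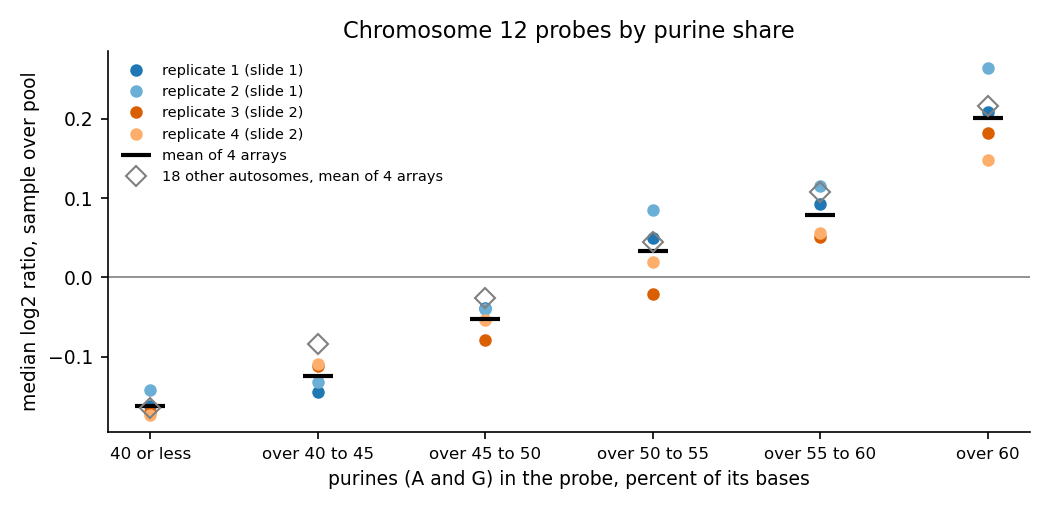
Median log2 ratio of chromosome 12 probes by the share of purines in the probe, on each array (points) with the mean of 4 arrays (bars), and the same mean for the 18 other autosomes (diamonds). The median rises from -0.16 in probes with at most 40% purines to 0.20 in those over 60%, on all 4 arrays and on the other autosomes alike.

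Of the bases taken singly, adenine had the largest positive rank correlation with the mean ratio, 0.33, and thymine the largest negative one, -0.27, with -0.19 for cytosine and 0.12 for guanine. The 50 highest probes well above background had a median of 38.3% adenine and 56.7% purines, and the 50 lowest 29.2% and 46.7%. Over all probes well above background the medians were 31.7% and 50%. After a correction for base composition, added after the data were seen, 169 of 675 genes passed and 138 of them were among the 197. With the same correction 30.6% of all autosomal genes passed. Under it Apob had 1.08 and Mycn 0.59, while Nkx2-1 had -0.28 and Foxa1 0.33. Smoc1, Prpf39, Ttc9, Dlk1 and Dio3 lost their calls under it, at 0.37, 0.14, -0.32, -0.25 and -0.26.

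The median of probes with a gene name lay above that of probes without. Single members spread more widely, with an interquartile range of 0.52 to 0.56 on the arrays. The 1632 named probes had medians of 0.0091, 0.010, -0.021 and -0.013, and the 382 unnamed probes -0.076, -0.047, -0.14 and -0.15. The difference was 0.085, 0.057, 0.12 and 0.14, a mean of 0.10 ± 0.036 (SD, n = 4; limma, adjusted p = 7.28e-12), and the array medians of the 2 kinds did not overlap. It was the largest of the 19 autosomes, of which 57.9% passed this test, and the fit again used a spread shared by all autosomes. Named probes had a median of 50% purines and unnamed ones 46.7%, with 36.7% GC in both. After the correction for base composition the difference was 0.089.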

How the data were processed

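Per the file headers, the scanner's spots were read with Feature Extraction 10.10.1.1, which gave a background-subtracted, dye-normalised intensity per channel. Probe positions are on mm9. The deposited log10 ratio column was used only as a check. The log2 of processed Cy5 over Cy3 intensity was taken, controls and outlier-flagged spots were dropped, repeat spots were averaged per probe, and arrays were centred on the autosomal median. No loess or quantile step was applied. The normexp alternative used the mean and background signals of the spots with an offset of 50 and without dye normalisation. It thus differs from the main values in more than background correction. A deposited log2 table of the same arrays was an alternative. Its columns matched their own arrays at r of 0.912 to 0.923, and its within-array normalisation stays unknown. Their medians were -0.035, 0.029, 0.052 and 0.0050.

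Medians of autosomes and windows and means of genes were tested against 0 with limma 3.58.1 in R 4.3.3, adjusted by Benjamini-Hochberg over all autosomes, windows or genes. Segments came from penalised least squares with at least 5 probes. Steps were tested on simulated data.

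Genes named were the 10 highest and 10 lowest called genes that have 3 probes or more and the same sign on every array, with 1 gene per 1 Mb, and up to 4 called members of each list. The rule added the genes at the edges, the extreme 3 of those with at least 10 probes on either side, and the 4 highest and lowest windows. Some genes of the rule are not reported here. Other names were chosen after their values were seen. The members and lists were chosen with earlier results of these data known. Of 675 gene names, 453 are symbols and 61 synonyms in RefSeq's table of GRCm38, used for names only. Gene structure on mm9 was not used here. No label ties the samples to separate animals, so p-values rest on a spread between samples that may be technical. The limma fits draw that spread toward the one shared by all autosomes, windows or genes, so a p does not measure 1 feature's spread alone. The pool is the only control, so ratios leave out the spread between normal livers. With 4 arrays, their number limits the precision.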

Additional observations from a re-analysis of the deposited data

Results flagged for a closer look

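In 6 of the 69 values tested for a sample far from the other 3, 1 array stood apart; chance alone flags about 1 in 20 groups. Replicate 3 was the low one in the window from 15 Mb, at -0.054 against -0.019 to -0.014, and replicate 4 in the window from 30 Mb, at -0.012 against 0.047 to 0.051. In the window from 55 Mb replicate 1 was the high one, at -0.076 against -0.10 on the others. Rps6ka5 had -0.0082 on replicate 4 against 0.32 to 0.37, and Dlk1 had -0.59 on replicate 3 against -0.33 to -0.29. Ptprn2 had 0.082 on replicate 1 against 0.17 to 0.18.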

How the results depend on the processing

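No paired analysis was possible because there is 1 group. The chromosome median kept its sign under all alternatives; with slide means as 2 samples it was -0.025 (limma, adjusted p = 0.079) and without single replicates -0.032 to -0.016. The difference between slides was -0.016 with centring on the mode. The difference between the sides of the midpoint (0.025 to 0.058) and that between named and unnamed probes (0.078 to 0.12) passed under all alternatives, and 0 segments were called under any. Percentages in brackets are the shares of all autosomal windows or genes called under the same setting. Against 2 of 23 windows called (38.2%), normexp gave 1 (26.5%) and the deposited log2 values 6 (43.3%). The regional GC correction gave 4 (29.8%) and no size limit 9 (61.4%). Windows of 2 Mb gave 8 of 41 (39.7%) and windows of 10 Mb 1 of 12 (35.3%). Leaving out a replicate gave 2 to 4 windows (37.6 to 38.2%), the most without replicate 1. Against 197 genes, slide means as 2 samples gave 119, a size limit of 0.5 gave 53, only genes with at least 3 probes 35, and leaving out a replicate 127 to 151, the fewest without replicate 2. Over 41 named genes and called windows with 15 alternatives each, 535 of 615 values kept direction and side of the threshold, 76 lost and 3 gained the call. The 41 include genes that were not called, such as Akap6, Immp2l and Nrxn3, which kept their side by staying uncalled. Centring on the other autosomes and keeping the outlier flags each left all 41 the same. Macc1, not called, changed sign in the deposited log2 table, at 0.017. The corrections for regional GC and for base composition were added after the data were seen. Probe noise limits what can be seen of short or subclonal changes.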
